A study of Bos taurus with 43 samples.

Results

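The 100 abundant genes whose mRNA level varied most between cows were examined in endometrial luminal samples of 43 Angus x Brahman cows. Counts of each library were divided by the library total and multiplied by 1000000 (CPM). Of 27570 listed genes, 2220 had a mean of at least 100 CPM over the 43 cows. The 100 of these with the largest standard deviation (SD) of log2(CPM + 1) are the members, or 4.50% of the abundant genes. The members were thus chosen by their spread over cows, which is given below as a description with no test.

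All cows were multiparous, had their estrus synchronized with a progesterone-releasing device, GnRH and PGF2alpha, and were used when estrus was detected. The uterine lumen was sampled with a cytology brush on day 4, counted from the last GnRH dose, and an embryo produced in vitro was transferred to each cow on day 7. The pregnancy check followed around day 30, and blood progesterone (P4) was measured on the day of sampling. The pregnant group held 25 cows and the nonpregnant group 18. Of the 22 cows in the second synchronization round (block 2) 14 became pregnant, and of the 21 in the first (block 1) 11 did. P4 ranged between 0.34 and 1.81 with a median of 0.86 in pregnant cows, and between 0.27 and 1.88 with a median of 0.51 in nonpregnant cows, in a unit that the labels do not state. Outcome was observed after sampling, and P4 was measured rather than assigned, so neither is a treatment.

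The luminal epithelium is the layer that the embryo meets first, and its secretions feed the embryo before it attaches. In the first days after ovulation the corpus luteum forms and releases progesterone, which acts on the endometrium through its receptor and changes which genes this layer transcribes. A brush collects loosened surface cells together with any immune or other cells on that surface. In such bulk samples fewer cells of a type and less RNA per cell cannot be told apart. The count tables pair no identifier with a gene name, so members are given by Ensembl identifier and have no function, position or sequence here. For the same reason the label endometrium was not checked against marker genes.

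Libraries held 11159501 to 23572549 counts with a median of 15544498, with 16705 to 18842 genes detected. Between 3.70% and 11.3% of the counts of a library fell on its 10 most abundant genes, and over 8% did so in 7 libraries. Some cows stood apart across many members. In the median cow, 28 of the 100 members were more than 2-fold from their own median over cows. That number was 66 in pregnant replicate 3 of block 1, 65 in pregnant replicate 4 of block 2 and 65 in pregnant replicate 15 of block 1, and it was lowest, at 13, in nonpregnant replicate 14. Pregnant replicate 3 had 55 members more than 2-fold below their median and 11 above, and it was also the library with the fewest detected genes (16705). Pregnant replicate 15 had 58 below and 7 above, while pregnant replicate 4 had 35 below and 30 above. Nonpregnant replicates 3, 18 and 12 had 64, 64 and 62 such members. Values without some of these libraries are given below for a part of the results.

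All 100 members were detected in every cow, with a smallest count of 8. Their SD ranged from 0.84 to 2.40 on the log2(CPM + 1) scale with a median of 1.08, against 0.10 to 0.83 with a median of 0.31 in the other 2120 abundant genes. An SD of 1 is a typical deviation of 2-fold. It was above 1 in 62 members and above 2 in 5. The ratio of the highest to the lowest cow was 32.9-fold in the median member, with a range of 11.2-fold to 7939-fold, and it was over 100-fold in 21 members. Counting error alone gave an SD of 0.005 to 0.07 log2 units, averaged over the cows of each member, and it was larger in the lowest cows. At the limit of the rule the SD of ENSBTAG00000020221, ranked 100, was 0.836 and that of ENSBTAG00000009020, the next gene, was 0.831. The 5 members just inside the limit lay between 0.836 and 0.850 and the 5 genes just outside between 0.818 and 0.831, so the limit falls in a continuous run of values.

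**Figure D1:**
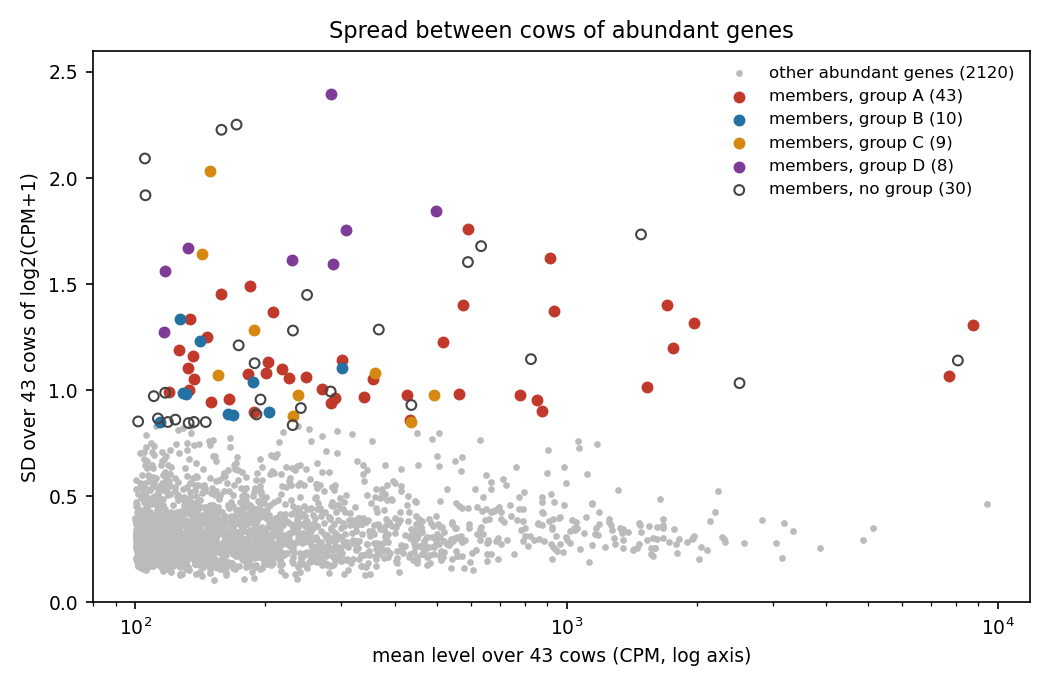
Mean CPM over the 43 cows (log axis) against the SD of log2(CPM + 1) for the 2220 abundant genes, with the 100 members marked apart from the other 2120. The members lie between 0.84 and 2.40, above a field of genes whose median is 0.31.

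Their mean abundance ran from 101.6 to 8751 CPM with a median of 213.8. CPM is not scaled by transcript length, so between genes it gives the share of reads and not a level per molecule. Members were 46 of the 1383 abundant genes with a mean under 200 CPM (3.33%) and 9 of the 97 with a mean over 1000 CPM (9.28%). In all, members held 2.33% to 13.9% of a library with a median of 5.35%. That share was 2.58% to 13.9% with a median of 5.75% in pregnant cows, and 2.33% to 13.7% with a median of 4.98% in nonpregnant cows. A library's 10 most abundant genes included 0 to 8 members, with a median of 3. Over all cows 29 genes reached the 10 most abundant of any library, and 12 of them were members.

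On the log2 scale the spread of the members was more often made by low cows than by high ones. The counts of tails and of farthest cows were made for the members only, so other abundant genes were not compared. The distribution of log2(CPM + 1) over cows had a longer lower tail in 84 members and a longer upper tail in 16. The cow farthest from the median was a low one in 85 members and a high one in 15. That cow was pregnant replicate 3 in 25 members, pregnant replicate 4 in 24 and pregnant replicate 15 in 11. Without its farthest cow, a member's SD ranged from 0.68 to 2.24 with a median of 0.98. Chosen again with these 3 cows left out, the list kept 92 of the 100 members.

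The spread was of like size within the groups of the design. The median SD of the members was 1.09 among pregnant cows and 1.14 among nonpregnant cows, and 1.09 in block 2 and 1.14 in block 1. When the rule was applied to block 2 alone it chose 84 of the 100 members, and applied to block 1 alone it chose 85. It chose 95 of them in pregnant cows alone and 86 in nonpregnant cows alone, and 66 members were chosen in all 4 of these subsets. Each subset is part of the libraries that chose the members, so overlap is favoured and these counts are a description.

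The members fell into groups that were high and low together. Spearman correlations over the 43 cows were used to build a tree of the members, and branches of at least 5 genes were kept as groups. These correlations describe the same 43 libraries that chose the members, and no test was made of them. Group A held 43 members, group B 10, group C 9 and group D 8, and 30 members were in no group of this size. Pairs of members had a rho of at least 0.5 in 17.9% of 4950 pairs, against 12.01% of the pairs of abundant genes. A rho of -0.5 or lower was found in 8.38% of member pairs and 8.56% of the pairs of abundant genes. A group's level in a cow is given below as the mean, over its genes, of log2(CPM + 1) minus the gene's median over all cows.

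**Figure D2:**
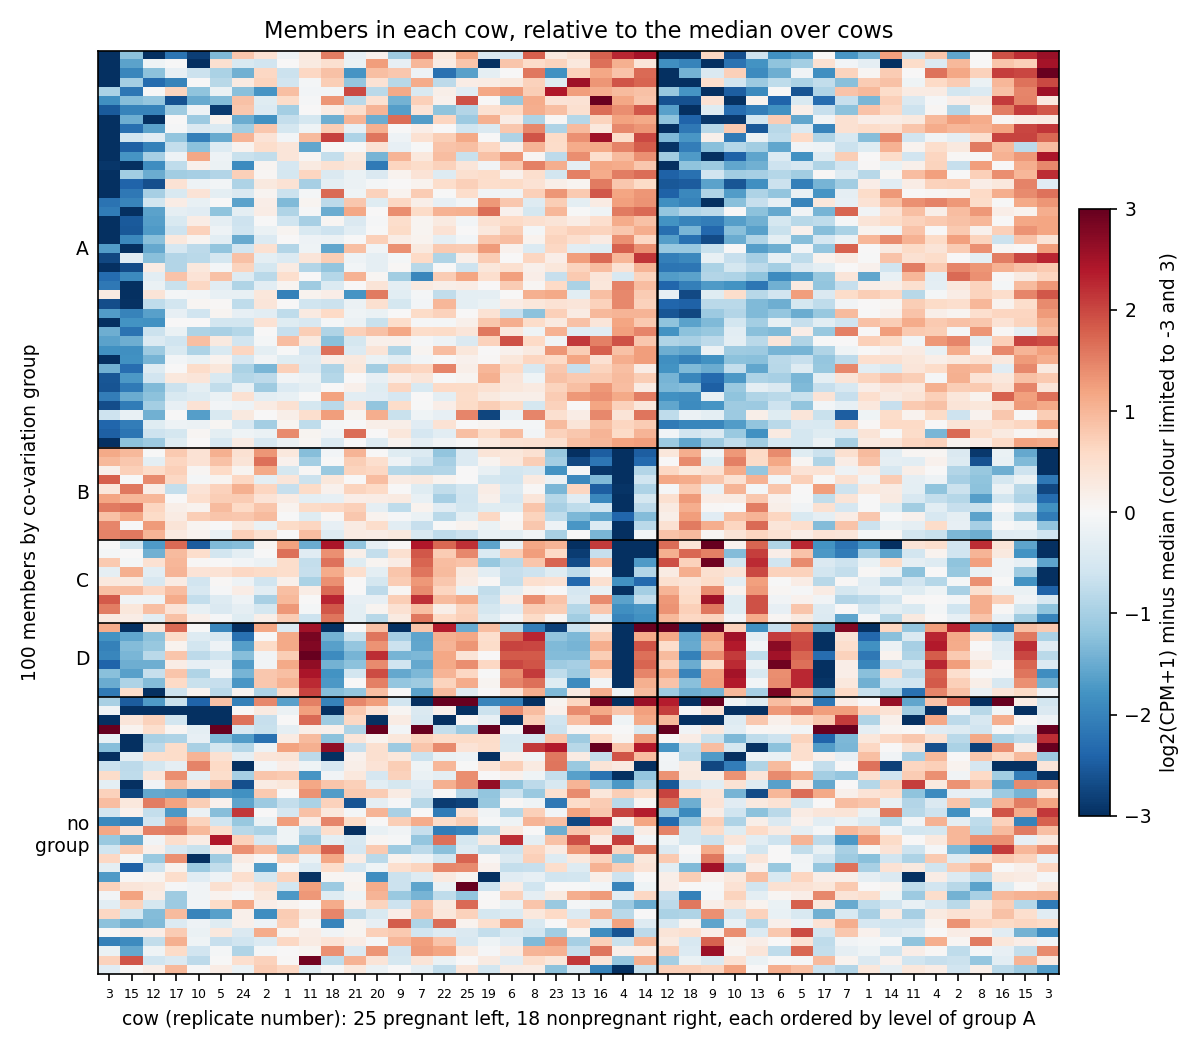
Each member (rows, in groups A to D and then the ungrouped members) in each of the 43 cows (columns), coloured by log2(CPM + 1) minus the member's median over cows. Blocks of rows share their high and low cows, and group B is low in several of the cows in which group A is high.

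Group A was the broadest pattern. Its 903 gene pairs had a median rho of 0.61 and a lowest rho of -0.04, and its SDs ran from 0.86 to 1.76. It held ENSBTAG00000001292, the member with the largest mean share of reads (8751 CPM). That gene ranged between 309 and 26039 CPM with a median of 8224 in pregnant cows, and between 964 and 21753 CPM with a median of 6244 in nonpregnant cows. The most variable gene of group A, ENSBTAG00000015724, lay between 25.9 and 2215 CPM with a median of 475 in pregnant cows, and between 22.2 and 2355 CPM with a median of 250.5 in nonpregnant cows. For both genes the ranges of the outcomes overlapped over most of their length.

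The level of group A was more than 1 log2 unit above zero in 5 cows and more than 1 below in 8. It was lowest in pregnant replicate 3 (-2.69), the library with the fewest detected genes. It was highest in nonpregnant replicate 3 (1.32), pregnant replicate 14 (1.15) and pregnant replicate 4 (1.11), whose 10 most abundant genes took 11.01%, 11.3% and 9.95% of the library. Over the 43 cows the level had a rho of 0.56 with that share, 0.39 with the number of detected genes and 0.07 with the total count. The share is partly made of group A genes, and its part in the pattern was not tested. Built again without the 7 libraries over 8%, the largest branch kept 27 of the 43 genes together, and without pregnant replicates 3, 4 and 15 it kept 26.

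Group B ran opposite to group A. Its 10 genes had a median rho of 0.66 among themselves, with a lowest of 0.26. All 430 pairs of a group A with a group B gene had a negative rho, with a median of -0.56. The group levels had a rho of -0.87 over the 43 cows. CPM values of a library share a fixed sum, so genes that take a larger share of reads leave less for the rest. The part of this in the opposition was not tested. ENSBTAG00000019262 showed the pattern with the widest spread in the group (SD 1.34). It lay between 8.51 and 282 CPM with a median of 113 in pregnant cows, and between 7.86 and 303 CPM with a median of 112 in nonpregnant cows. ENSBTAG00000002444, which had a rho of 0.97 with it, lay between 11.2 and 399 CPM with a median of 135 in pregnant cows, and between 13.6 and 364 CPM with a median of 117.3 in nonpregnant cows. Both outcomes had a few cows far below their median. The lowest group B levels were those of pregnant replicate 4 (-3.42), nonpregnant replicate 3 and pregnant replicate 16. Over the 43 cows this level had a rho of -0.54 with the percentage of a library that fell on its 10 top genes.

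Group C held 9 genes with a median rho of 0.75 and a lowest of 0.39 among themselves. Its level was lowest in pregnant replicate 4 (-3.35) and nonpregnant replicate 3 (-2.53), the cows that were also lowest in group B. Over all cows, however, the levels of groups B and C had a rho of 0.25. All its slopes on P4 had the same sign, as described with the P4 comparison below.

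Group D was the smallest group and the most variable. Its 8 genes had SDs of 1.27 to 2.40, a median rho of 0.92, and 7 of them were among the 25 most variable members. Single pairs had a rho of 0.23 to 0.99, and the highest rho of ENSBTAG00000055240 with any other member was 0.59. ENSBTAG00000055240, the most variable abundant gene of all (SD 2.40), lay between 1.43 and 1636 CPM with a median of 71.3 in pregnant cows, and between 6.66 and 3983 CPM with a median of 115 in nonpregnant cows. ENSBTAG00000021466 (SD 1.85) lay between 1.75 and 2110 CPM with a median of 225 in pregnant cows, and between 22.9 and 1681 CPM with a median of 395 in nonpregnant cows. In both genes the lowest cow was a pregnant one, and the ranges overlapped. The group level was more than 1 log2 unit above zero in 14 cows and more than 1 below in 13, against 5 and 8 cows for group A. Its extremes were pregnant replicate 4 (-4.72) and pregnant replicate 11 (2.59), and without replicate 4 the lowest pregnant cow stood at -1.79.

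Group D was also the group with the fewest companions outside the members. Among the other 2120 abundant genes, only 3 had a rho of at least 0.7 with the level of group D and 0 had a rho of -0.7 or lower. The matching numbers were 91 and 178 for group A, 168 and 51 for group B, and 47 and 3 for group C. Group D had a rho of 0.08 with group A and 0.01 with group C.

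**Figure D3:**
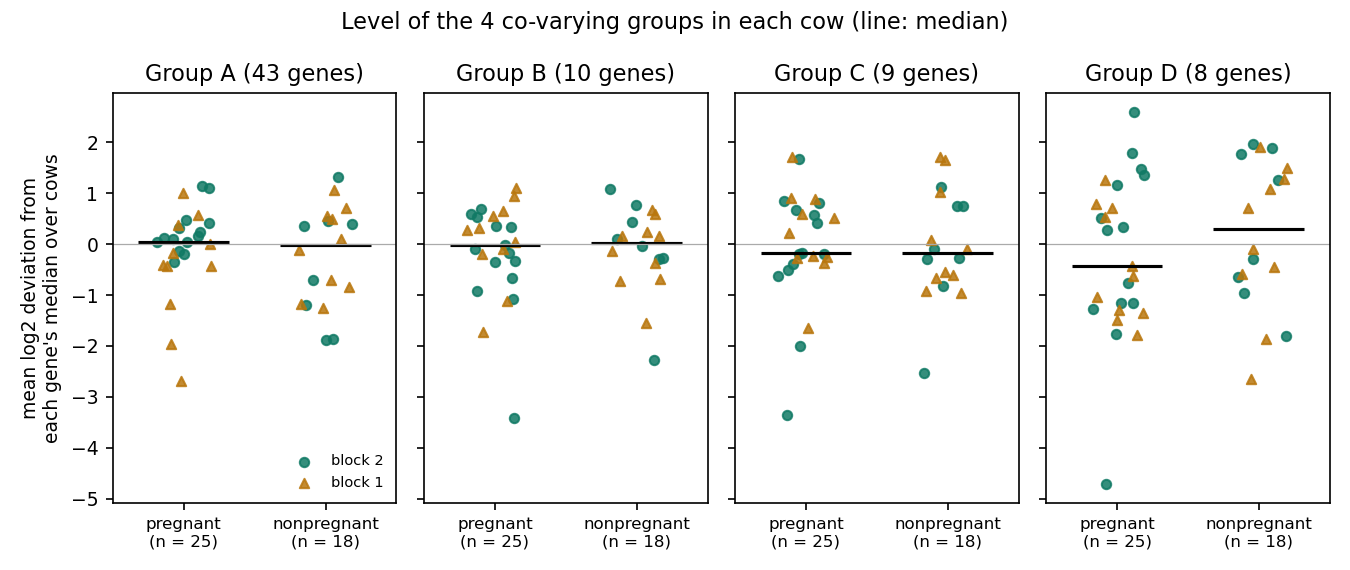
Level of groups A to D in each cow (points, log2 units relative to each gene's median over cows), with pregnant cows on the left and nonpregnant cows on the right of each pair. Group D spans the widest range, -4.72 to 2.59, and within each group the outcomes overlap.

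Among the 30 members in no group, the median rho between pairs was 0.03. They included ENSBTAG00000047700, second in spread (SD 2.25), which lay between 3.56 and 585 CPM with a median of 34.0 in pregnant cows, and between 1.57 and 2189 CPM with a median of 64.0 in nonpregnant cows. ENSBTAG00000004796, with a mean of 8066 CPM, lay between 1340 and 29565 CPM with a median of 5795 in pregnant cows, and between 1526 and 24967 CPM with a median of 5436 in nonpregnant cows.

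Some members had empty stretches in their distribution. A gap of more than 4-fold between neighbouring cows in the order of level was found in 18 members and in 1 of the other 2120 abundant genes. In 13 of the 18, the widest gap set 1 cow apart, low in 12 and high in 1, and the low cow was pregnant replicate 4 in 8 of them. In 1 more it set 2 cows apart. In the other 4 members the gap left at least 3 cows on each side, which occurred in 0 of the other 2120 genes. The wide spread that chose the members favours such gaps, so these counts are a description.

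ENSBTAG00000006383 had the widest such gap. It lay between 294 and 748 CPM with a median of 353 in 10 cows, and between 8.72 and 28.3 CPM with a median of 18.3 in the other 33, with no cow in the 10.4-fold interval between. The high cows were 6 of 25 pregnant and 4 of 18 nonpregnant cows, and 6 of the 22 cows of block 2 and 4 of the 21 of block 1. ENSBTAG00000037605 lay between 63.3 and 557 CPM in 32 cows and between 3.11 and 11.2 CPM in 11. Its high cows were 18 of the pregnant and 14 of the nonpregnant cows. ENSBTAG00000034077 lay between 42.3 and 385 CPM in 34 cows and between 1.30 and 5.82 CPM in 9, and its high cows were 19 of the pregnant and 15 of the nonpregnant cows. In these 3 genes both sides of the gap held pregnant and nonpregnant cows, and cows of both blocks. The fourth gene, ENSBTAG00000020116, was close to the limit, with 4 cows at or below 39.8 CPM, the next at 159.7 CPM and a gap of 4.01-fold.

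Other gaps rested on a single library. ENSBTAG00000002069 stood at 0.797 CPM in pregnant replicate 15 and between 257 and 6327 CPM in the other 42 cows, a gap of 322-fold. Its SD was 1.73 with that cow and 0.98 without it. ENSBTAG00000007554 was the only member of the 13 with its 1 cow on the high side. It stood at 2824 CPM in pregnant replicate 25 and between 43.9 and 409 CPM in the other 42, with an SD of 0.92 with that cow and 0.68 without it.

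**Figure D4:**
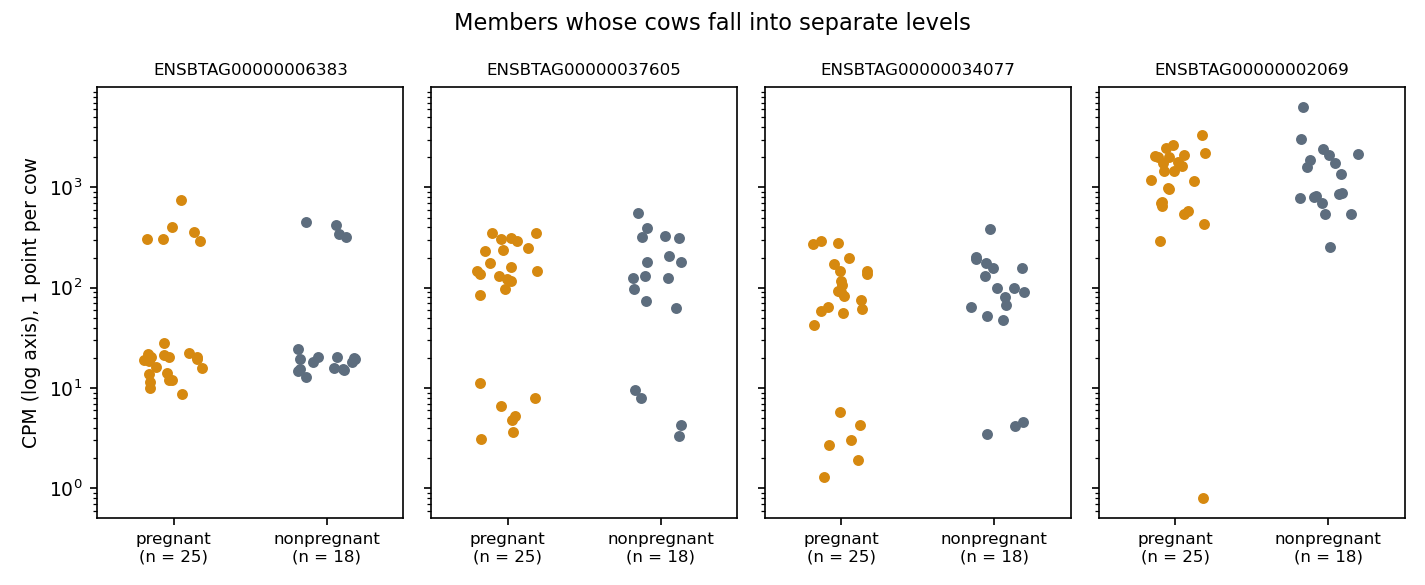
CPM (log axis) of members with an interval of more than 4-fold that holds no cow, 1 point per cow, with pregnant cows left of nonpregnant cows. ENSBTAG00000006383, ENSBTAG00000037605 and ENSBTAG00000034077 have several cows on either side of the interval, while in ENSBTAG00000002069 it sets 1 pregnant cow apart.

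The series asks how the day 4 transcriptome relates to pregnancy, and the outcome was not used to choose the members. Pregnant and nonpregnant cows were compared with edgeR's quasi-likelihood test with block as a term, with Benjamini-Hochberg adjustment over all 15206 genes tested. At an adjusted p of 0.05, 0 of the 100 members were called, where 0% of all genes tested were called. DESeq2 and limma also called 0 members. At an unadjusted p under 0.05 there were 3 of the 100 members, beside 2.99% of all genes and 2.52% of the abundant genes. The median log2 fold change, pregnant over nonpregnant, was 0.00 over the members and 0.01 over all genes, and 52 members had a positive value. The absence of calls says little about any 1 member, because the 95% interval lay within 2-fold in both directions for only 71 of the members. Outcome accounted for 0.820% of a member's variance in the median and 8.70% at most, beside a median of 0.682% over all abundant genes.

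The levels of the groups overlapped between outcomes. Group A ranged from -2.69 to 1.15 with a median of 0.05 in pregnant cows, and from -1.89 to 1.32 with a median of -0.01 in nonpregnant cows. The median of group B was -0.01 in pregnant cows and 0.03 in nonpregnant cows, and group C one of -0.18 in both. Group D ranged from -4.72 to 2.59 with a median of -0.43 in pregnant cows, and from -2.65 to 1.97 with a median of 0.30 in nonpregnant cows. Without any 1 of pregnant replicates 3, 4 and 15 the pregnant median of group D was -0.08. All 8 fold changes of group D were negative, with a median of -0.42 on the log2 scale. None passed the adjusted threshold, and only ENSBTAG00000055240, with a log2 fold change of -1.84, had an unadjusted p under 0.05. The highest cow of this gene (3983 CPM) and the next (2416 CPM) were nonpregnant, and no pregnant cow was above 1636 CPM. Outcome accounted for 2.92% of its variance. The lowest fold change of group D was -0.40 with limma and -2.47 without the 7 libraries over 8%, so its size depends on the setting. The genes of a group share their high and low cows, so the common sign of the 8 fold changes is not 8 separate observations. The median fold change was -0.23 with 2 positive values within block 2, -0.68 within block 1 and -0.19 with limma. It was -0.27 with 1 positive value without nonpregnant replicate 6, and -0.37 without pregnant replicate 4.

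The P4 comparison asks which members followed blood progesterone on the sampling day. Log2 P4 was fitted with block as a term in the same test. Of the 100 members 1 was called, where 0.513% of all genes tested were called, 0.322% with a positive and 0.191% with a negative slope. At an unadjusted p under 0.05 there were 16 of the 100 members, beside 16.4% of all genes. Both shares of the members were close to those of all genes tested. Of the abundant genes, 0.631% were called and 22.8% had an unadjusted p under 0.05. The median slope was 0.01 log2 units per doubling of P4 over the members and -0.01 over all genes. P4 accounted for over 10% of the variance in 9 of the 100 members and in 15.5% of the abundant genes.

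The called member was ENSBTAG00000008635 of group C. In the 14 cows of highest P4 (0.92 to 1.88) it lay between 197.3 and 1821 CPM with a median of 579, and in the 14 cows of lowest P4 (0.27 to 0.51) between 168.9 and 337 CPM with a median of 262. The ranges overlapped at their lower end, and the 8 highest cows all had a P4 of at least 0.80. That value lies below the median P4 of pregnant cows (0.86), so other cows reached it as well. The fitted level rose by 0.89 ± 0.17 log2 units per doubling of P4 (SE, n = 43, 95% interval 0.54 to 1.23, edgeR adjusted p = 0.0148). Within block 2 alone the slope was 0.75 (edgeR adjusted p = 0.111) and within block 1 alone 0.98 (edgeR adjusted p = 0.272). The call was kept without any 1 of the 43 cows, with adjusted p between 0.00129 and 0.0424. It was lost with limma (slope 0.72, adjusted p = 0.140) and without the 7 libraries over 8% (slope 0.92, edgeR adjusted p = 0.0591). By outcome the same gene had a median of 309 CPM in pregnant cows and 302 CPM in nonpregnant cows.

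The other 8 genes of group C had positive slopes as well. Slopes over the 9 genes ran from 0.41 to 1.07 with a median of 0.56, and 9 of 9 had an unadjusted p under 0.05, although 1 was called. These genes share their high and low cows, so this is not 9 separate observations. The median slope was 0.53 within block 2, 0.59 within block 1, 0.52 without the 7 libraries over 8%, and 0.51 to 0.65 when each cow was left out in turn. ENSBTAG00000021119, the steepest, lay between 7.69 and 761 CPM with a median of 143 in the 14 cows of highest P4, and between 5.19 and 415 CPM with a median of 24.9 in the 14 of lowest P4. Its slope of 1.07 ± 0.37 did not pass the threshold (SE, edgeR adjusted p = 0.134). The level of group C ranged from -1.65 to 1.72 with a median of 0.58 in the cows of highest P4, and from -2.53 to 0.74 with a median of -0.58 in those of lowest P4. Slopes were positive in 22 of 43 genes of group A, 7 of 10 of group B and 1 of 8 of group D. No gene of these groups was called. The positive slope of group D was that of ENSBTAG00000055240 (0.29 ± 0.56, SE). Its median, however, was 42.6 CPM in the 14 cows of highest P4 and 121 CPM in the 14 of lowest P4. With limma 0 of 8 slopes of group D were positive. In groups A and B the sign was not stable between blocks. In group A 5 of 43 slopes were positive within block 2 and 33 of 43 within block 1, with medians of -0.40 and 0.16. In group B 10 of 10 were positive within block 2 and 3 of 10 within block 1, with medians of 0.38 and -0.10. The difference between the blocks was not tested.

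The blocks are successive rounds of synchronization, and their difference is a check on what else varied between cows. Block 2 was compared with block 1 with outcome as a term. Of the 100 members 2 were called, where 0.414% of all genes tested and 0.586% of the abundant genes were called. Both were lower in block 2, where 0.0658% of all genes were called lower and 0.349% higher. At an unadjusted p under 0.05 there were 7 of the 100 members, beside 14.2% of all genes and 21.8% of the abundant genes. Block accounted for over 10% of the variance in 6 of the 100 members and in 13.8% of the abundant genes.

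ENSBTAG00000054661 lay between 234 and 5678 CPM with a median of 1390 in block 2, and between 1134 and 5909 CPM with a median of 3169 in block 1. The lowest cows were in block 2, while the highest values of the blocks were close. Its log2 fold change was -1.16 ± 0.24 (SE, 95% interval -1.65 to -0.68, edgeR adjusted p = 0.0205). ENSBTAG00000051364 lay between 98.01 and 2237 CPM with a median of 401 in block 2, and between 367 and 2062 CPM with a median of 1141 in block 1. Its log2 fold change was -1.15 ± 0.28 (SE, 95% interval -1.70 to -0.59, edgeR adjusted p = 0.0437). These genes had a rho of 0.97 over the 43 cows, and block accounted for 40.2% and 36.6% of their variance. The 4 lowest cows were the same in both genes, and all 4 were pregnant cows of block 2, so these calls are not separate observations. They were pregnant replicates 21, 22, 23 and 25, and no fit left these 4 cows out together. The SD of ENSBTAG00000054661 was 0.98 in block 2 and 0.58 in block 1, and that of ENSBTAG00000051364 was 1.14 and 0.63.

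The first call was kept without any 1 of the 43 cows, with adjusted p between 0.00205 and 0.0394. The second was lost without any 1 of 28 of the 43 cows, with adjusted p up to 0.0867. Detected genes had a median of 18347 in block 2 and 18051 in block 1. With that number added to the fit, the log2 fold change of ENSBTAG00000054661 was -1.11 (edgeR adjusted p = 0.0742), and 0 members were called. Neither gene was in groups A to D. In group D 8 of 8 fold changes were positive, with a median of 0.61 on the log2 scale and no call. That median was 0.37 with 7 positive values without pregnant replicate 11, and 0.66 without pregnant replicate 4. In group A 34 of 43 were positive, without a call, with a median of 0.21. Without nonpregnant replicate 3 that was 24 of 43 with a median of 0.07. In groups B and C 0 of 10 and 0 of 9 were positive, without a call, with medians of -0.19 and -0.27. These signs changed in part with the setting: 8 of 10 in group B were positive with detected genes added, 3 of 10 without pregnant replicate 3, and 3 of 9 in group C without the 7 libraries over 8%. Without nonpregnant replicate 18 the median of group B was -0.30, and that of group C was -0.17 without nonpregnant replicate 9 and -0.16 without pregnant replicate 18.

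**Figure D5:**
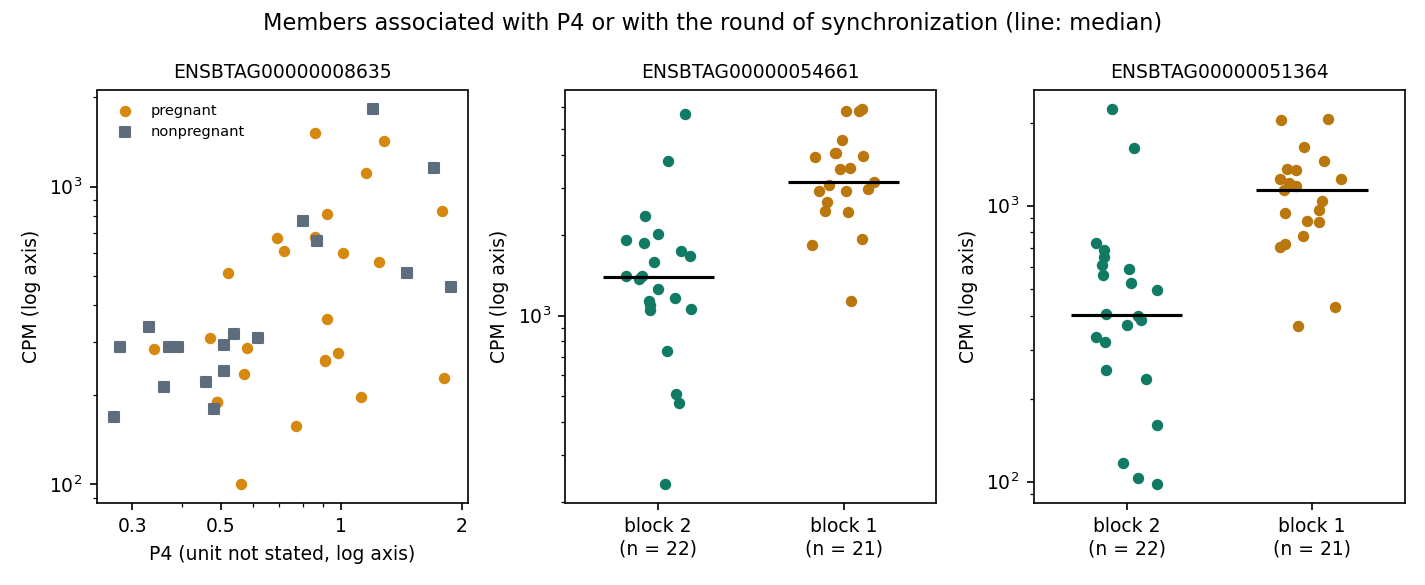
CPM (log axis) of the 3 called members, 1 point per cow: ENSBTAG00000008635 against P4 in the unit of the labels, and ENSBTAG00000054661 and ENSBTAG00000051364 in block 2 on the left and block 1 on the right. The 8 highest cows of the first gene have a P4 of at least 0.80, a value that other cows reach as well. The other 2 genes reach their lowest values in block 2.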

How the data were processed

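Each cow gave 1 library, and the authors deposited 1 table of raw read counts per library, as whole-number values show. Per the labels' protocols, RNA was captured by poly-A tail and sequenced on a NovaSeq instrument. HISAT2 and HTSeq are listed in the submitters' processing notes beside Trim Galore 0.4.4, FastQC 0.11.7 and the build ARS-UCD1.2. In the sources used here the order of steps, strand setting and annotation are not given, so reads of overlapping or near-identical genes may be split or lost. Replicate numbers run in accession order and name cows only.

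CPM used the total of all listed genes and a pseudocount of 1. Tests used edgeR 4.0.16 (TMM factors, filterByExpr with a minimum count of 10, robust glmQLFit) on 15206 genes in R 4.3.3, with a threshold of 0.05 on adjusted p-values. Alternatives were limma 3.58.1 (voom, sample weights), DESeq2 1.42.0, other filters and scales, added covariates, single blocks, and each cow left out in turn. Spearman rho and average linkage on 1 - rho, split at 0.5, gave the groups. The scripts were tested on simulated data. The share of variance is the squared Pearson correlation of log2(CPM + 1) with the label.

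The members, gene lists and comparisons were chosen with earlier results of these data known. No Ensembl identifier appears in the gene table used here (ARS-UCD2.0), so 0 were matched to a name, and lists of marker and pathway genes were not used. The rule for named genes took the most variable and most abundant members, every called member and those at the limit, by identifier and with at most 2 per direction or group. The genes with gaps were chosen after their values were seen.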

Additional observations from a re-analysis of the deposited data

How the results depend on the processing

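The outcome comparison called 0 members with every alternative run. For P4, 1 member was called in the main fit, against 4 with DESeq2, 0 with limma, 0 without the 7 libraries over 8%, 0 within block 2 and 0 within block 1. Leaving out each cow in turn gave 1 to 7, with 5 without nonpregnant replicate 5 and 7 without pregnant replicate 13. For block, 2 members were called in the main fit, against 4 with DESeq2, 5 with limma, 1 with no low-count filter, 1 without the 7 libraries, 0 with detected genes added and 1 with no outcome term. Leaving out each cow gave 1 to 5, with 5 without nonpregnant replicate 7. ENSBTAG00000051364 lost its call without any 1 of pregnant replicates 2 to 5, 9 to 13 and 15 to 25 and nonpregnant replicates 1, 2, 4, 5, 10, 14, 15 and 16. No sign of a called member reversed, and the cause of the lost calls was not tested.

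A mean of at least 50 CPM kept 47 of the 100 members. One of at least 200 CPM kept 54, a number fixed beforehand because 46 members had a mean under 200 CPM. Leaving out a cow kept 92 to 100 of them. Of the 43 genes of group A, 27 stayed together without the 7 libraries, 27 within block 2, 38 within block 1 and 26 without pregnant replicates 3, 4 and 15. These 4 alternatives were chosen after seeing the data. With Pearson correlation 41 stayed together and with TMM-scaled CPM 43. Each p-value sets a difference or slope against the residual spread between cows, and none was made for the spread that chose the members. No paired analysis was possible because the labels give no replicate numbers shared between groups.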
